A study of Homo sapiens with 3 samples.

Results

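Glycosyltransferases of 10 numbered families were followed in A549 cells, an established line from a human lung adenocarcinoma, after exposure to cordycepin or to cordyceps. A gene was a member when its symbol began with GALNT, FUT, ST3GAL, ST6GAL, ST6GALNAC, ST8SIA, B3GNT, B3GALT, B4GALT or MGAT followed by a number, with pseudogenes and antisense genes left out. Of 77 such symbols in the gene table, 76 had a probe on the array, among 22435 named genes with a probe, and the missing symbol was B3GALT9. These 76 genes were read by 97 probes out of 58191 with a value on every array, and 58 of them had 1 probe each, 15 had 2 and 3 had 3. RNA was taken after 48 h from cells kept with 0.1% DMSO (control), with cordycepin at 60 μg/mL or with cordyceps at 100 μg/mL, and each condition was hybridized to 1 Agilent one-colour array. The medium of all 3 cultures held serum and antibiotics, and also nicotinamide, troglitazone and zinc sulfate, so the control cells were exposed to those agents too. The study's methods name the serum and antibiotics, but not nicotinamide, troglitazone or zinc sulfate. Cordycepin is an adenosine analogue that lacks a hydroxyl group on its ribose and is made by fungi of the genus Cordyceps. How the cordyceps material was prepared is not stated in the labels, and its comparison with the control is known from the labels alone.

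These enzymes work in the Golgi, where each moves one sugar from an activated donor to a growing glycan. Members of the GALNT family start mucin-type O-glycans by placing N-acetylgalactosamine on serine or threonine, and the MGAT enzymes add the N-acetylglucosamine branches that turn high-mannose N-glycans into complex ones. B3GNT, B3GALT and B4GALT enzymes lengthen chains by alternating N-acetylglucosamine and galactose, while the FUT enzymes add fucose and the ST3GAL, ST6GAL, ST6GALNAC and ST8SIA enzymes cap chains with sialic acid. The O-glycans of airway mucins, Lewis and sialyl-Lewis structures and branched N-glycans are all products of such steps. The arrays measured mRNA, not enzyme activity or glycans.

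The value used for each gene was that of its brightest probe, as log2 of the processed signal minus the 75th percentile of the same array, and a ratio is the difference of these values between a treated array and the control array. A probe counted as detected on an array when the scanner software had set 50% or more of its spots well above background. With 1 array per condition no test could be made and no replicate spread exists, so a change was counted at 2-fold or more, and the error given with a ratio is the scanner's own error for the 2 spots, which leaves out any difference between cultures. The 2 brightest probes of a gene gave a second estimate of the error, a single-probe SD taken from the median absolute difference. It was 0.26 on the log2 scale for cordycepin over 3675 genes and 0.20 for cordyceps over 3418 genes. Where the dimmer probe was under a signal of 100 it was 0.39 and 0.33. This estimate gives little weight to genes whose probes differ widely. The root mean square gave 0.37 and 0.36 over all these genes, and 0.48 and 0.52 for the dim ones. The 75th percentile signal was 260.1, 224 and 260.2 on the control, cordycepin and cordyceps arrays, and the lowest signal of a detected probe was 18.6, 21.8 and 34.5. One corner of the cordyceps array, rows past 5/8 and columns past the middle, held 18.6% of all probes but 57.1% of the probes at least 2-fold higher there (16.6% for cordycepin), and 11.2% of its spots were marked by the scanner software because their local background was outlying, against 0% on the other arrays. Of the 76 genes 15, called corner members here, had their brightest probe in that area, and their values are marked as such. All 6 epithelial markers checked (EPCAM, CDH1, KRT7, KRT8, KRT18 and KRT19) were detected on every array. Of 5 lung lineage markers 3, 3 and 1 were detected, with SFTPA1 and SFTPB on none. Of 7 markers of blood, endothelial and connective tissue cells 4, 3 and 2 were detected, with CD3E, PECAM1 and COL3A1 on none. Most of these 7 were thus detected in control cells, so the markers do not show that RNA typical of other cell types was absent.

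Of the 76 genes, 56 were detected in control cells, 56 after cordycepin and 52 after cordyceps, with 51 detected on all 3 arrays and 18 on none. All 6 ST3GAL genes and both ST6GAL genes were detected on every array. GALNT genes were detected in 12, 13 and 12 of 18 cases on the control, cordycepin and cordyceps arrays, FUT genes in 5 of 9 and MGAT genes in 7 of 9 on each of the 3. For B4GALT the numbers were 7, 6 and 6 of 7, for B3GNT 7, 7 and 5 of 8, for ST6GALNAC 5, 5 and 4 of 6, for ST8SIA 3 of 6 on each array and for B3GALT 2 of 5 on each. The 18 genes not detected on any array were GALNT3, GALNT8, GALNT13, GALNT15, GALNT17, FUT2, FUT5, FUT7, FUT9, ST6GALNAC5, ST8SIA2, ST8SIA5, B3GNT6, B3GALT1, B3GALT2, B3GALT5, MGAT4C and MGAT4D. They include FUT2, the secretor fucosyltransferase, FUT7, which completes sialyl-Lewis X in leukocytes, and B3GNT6, the core 3 O-glycan synthase. ST6GALNAC1, ST8SIA3, B3GNT8 and B3GNT9 were detected on the control and cordycepin arrays with signals of 30.0 to 63.0 and not on the cordyceps array. The lowest detected signal was higher on that array, at 34.5, but B3GNT9 read 35.1 there and was still not detected. The bounds for these 4 genes ran from -0.54 to -0.13 on the log2 scale, short of 2-fold.

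**Figure D1:**
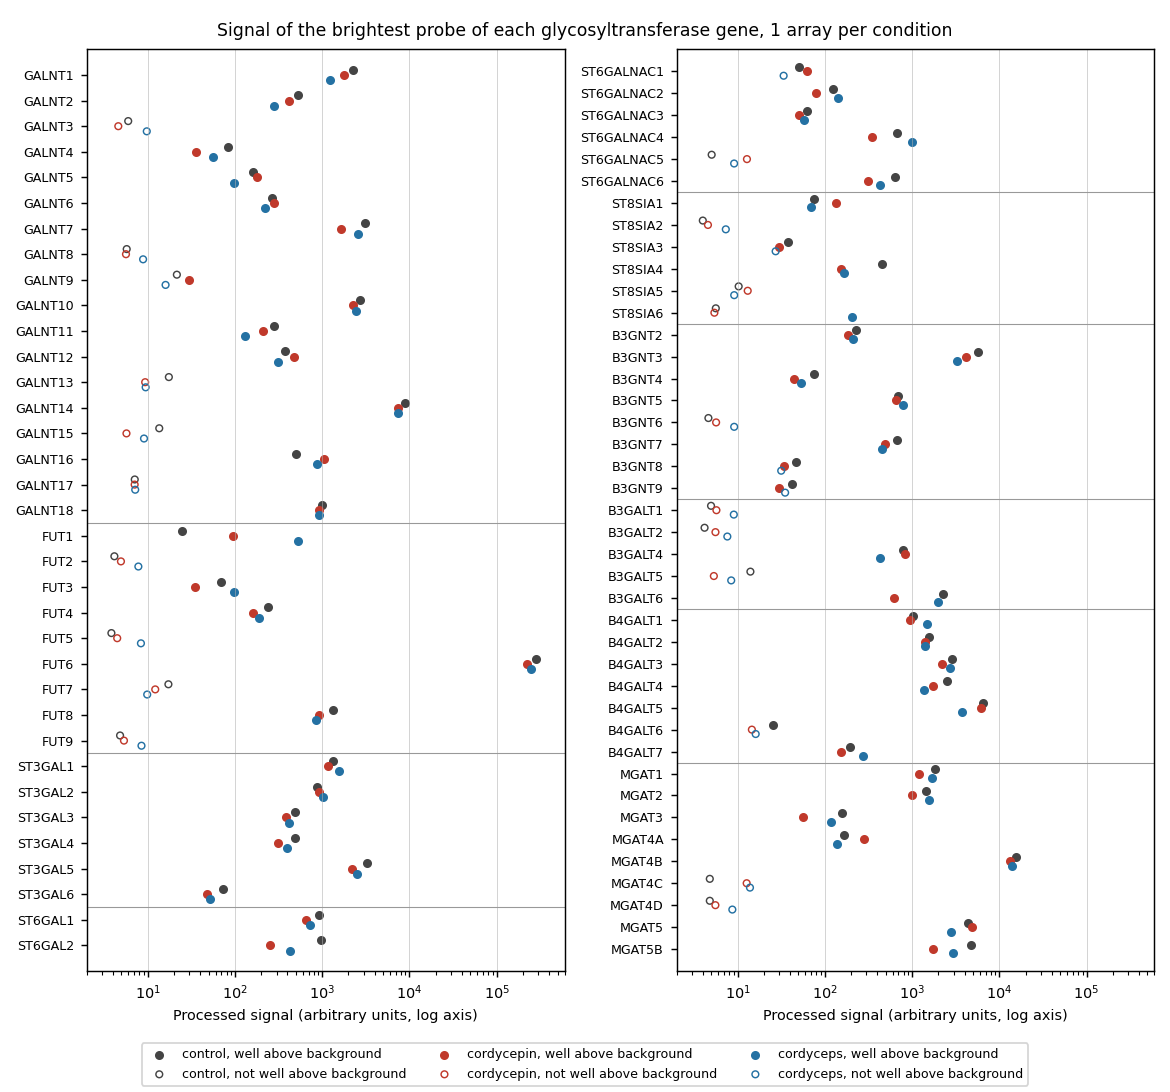
Processed signal of the brightest probe of each of the 76 glycosyltransferase genes on a log axis, 1 array per condition, filled where the probe was well above background and open where it was not, with lines between families. Most triplets lie close together, while FUT1 and ST8SIA6 spread widely and ST6GAL2, ST8SIA4 and B3GALT6 are displaced to lower signals on 1 or both treated arrays.

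On the cordycepin array 57 members could be compared with the control, and 3 of them (5.26%) were at least 2-fold higher, against 5.95% of 15917 named genes, while 6 (10.5%) were at least 2-fold lower, against 3.57% of those genes. The higher members were FUT1, GALNT16 and ST8SIA1 and the lower ones ST6GAL2, B3GALT6, ST8SIA4, MGAT3, MGAT5B and GALNT4. Over the 55 members detected on both arrays the median log2 ratio was -0.13, with quartiles of -0.39 and 0.09, and the median over all genes measured in the same way was -0.05. Of these 55 members 36 (65.5%) lay below the median of all genes. Fewer cells that express a gene and less RNA per cell cannot be told apart in such bulk RNA, and with 1 culture per condition a difference between cultures cannot be told apart from the treatment. Lower calls were spread over 5 families and no family had more than 2 of them, MGAT being the one with 2. At the shares over all genes, families this small would hold few calls or none. Counts per family are given as description in both comparisons. Scaling moved this split: on the arrays as scanned, without scaling, 2 members were higher and 7 lower, after scaling to the array median 2 and 9, and after scaling to the 75th percentile of probes detected on all arrays 4 and 5. Such scalings move every gene, and the median of all genes was -0.32 after scaling to the array median. The shares of all genes at 2-fold were not computed under them, so these counts are no result about the members.

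On the cordyceps array 57 members could be compared as well, and 2 (3.51%) were at least 2-fold higher, against 4.19% of 15602 named genes, while 3 (5.26%) were at least 2-fold lower, against 3.15%. Both higher members, FUT1 and ST8SIA6, were corner members, and the lower ones were ST8SIA4, ST6GAL2 and GALNT11, all outside the corner. Outside the corner 0 of 45 members were higher, against 2.66% of 12622 genes, and 3 (6.67%) were lower, against 3.15%. The median log2 ratio over the 51 members detected on both arrays was -0.25, with quartiles of -0.62 and -0.10, beside -0.11 over all genes, and 38 of the 51 (74.5%) lay below the median of all genes. After scaling to the array median 3 members were higher and 1 was lower, and the members' median was 0.017 beside 0.16 over all genes. The shares of all genes at 2-fold under that scaling were not computed. Both comparisons share the control array, so the ratios of a gene in the 2 comparisons are not independent, and they are given side by side below.

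**Figure D2:**
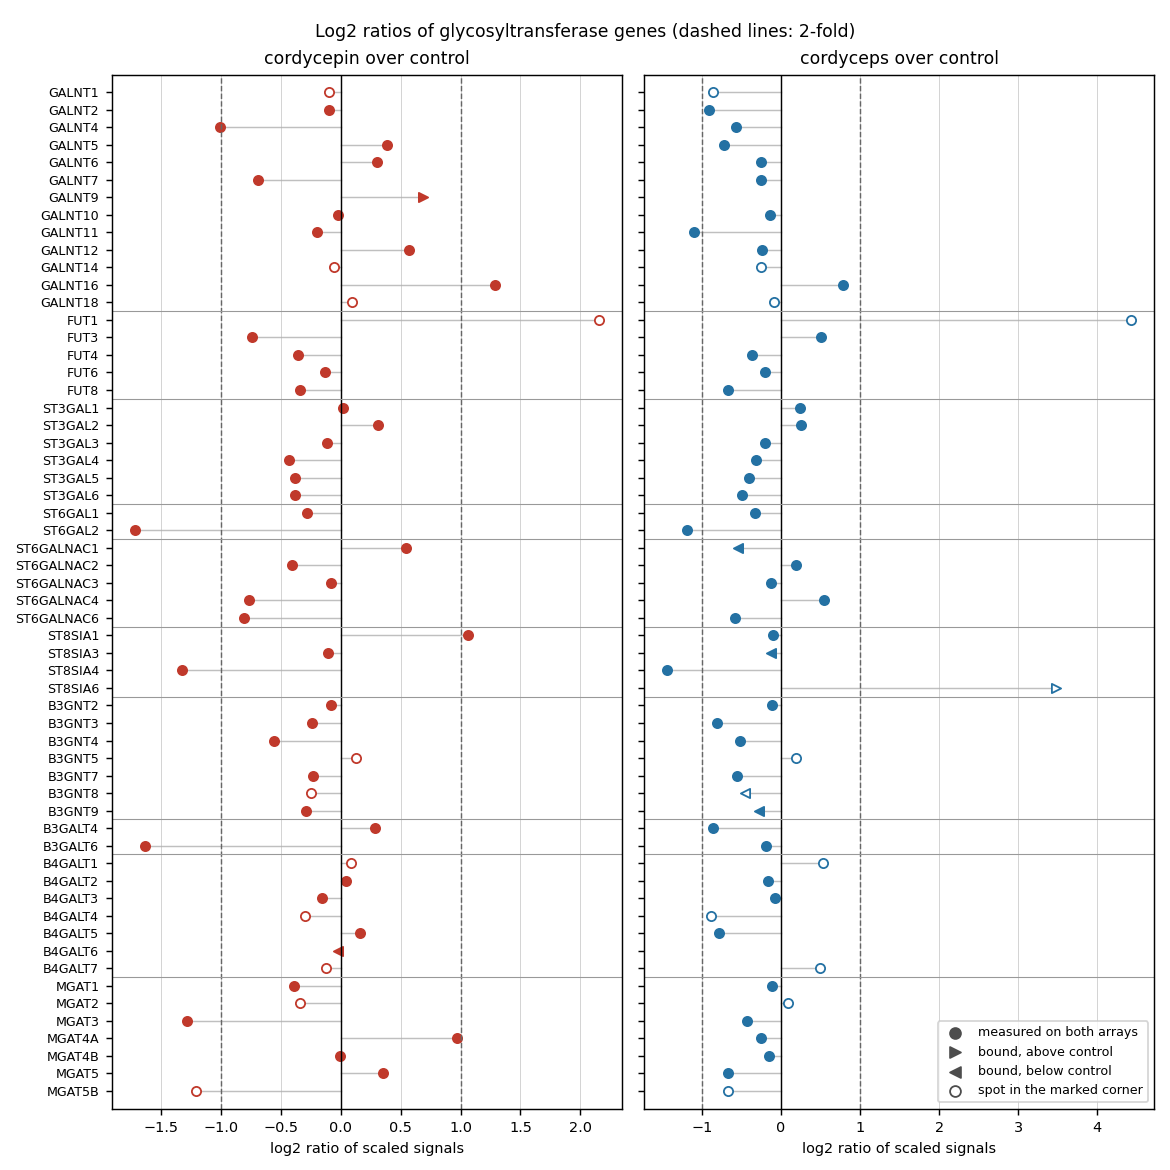
Log2 ratio of each member detected on at least 1 array of a comparison, cordycepin over control on the left and cordyceps over control on the right, with circles for genes detected on both arrays, triangles for bounds and open symbols for corner members, and dashed lines at 2-fold. FUT1 is the member farthest to the right in both panels (2.16 and 4.43), ST6GAL2 is farthest to the left for cordycepin (-1.72) and ST8SIA4 for cordyceps (-1.44).

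Promoters of 4 genes are shown because they belong to the genes with the largest measured ratios: FUT1, the member highest in both comparisons, ST6GAL2 and ST8SIA4, the members at least 2-fold lower in both, and B3GALT6, lower with cordycepin alone at this threshold. Each is the 250 bases before the RefSeq start of the gene in GRCh38.p14, read 5′ to 3′ on the strand of the gene, at chr19:48755359-48755608 (minus) for FUT1, chr2:106886029-106886278 (minus) for ST6GAL2, chr5:100903283-100903532 (minus) for ST8SIA4 and chr1:1231987-1232236 (plus) for B3GALT6. Capitals mark letters that match 1 of 5 motifs on either strand, the GC box GGGCGG, the TATA box TATAAA, the E-box CACGTG, the AP-1 motif TGANTCA and the CCAAT box CCAAT, the last being read wherever the 5 letters occur.
FUT1: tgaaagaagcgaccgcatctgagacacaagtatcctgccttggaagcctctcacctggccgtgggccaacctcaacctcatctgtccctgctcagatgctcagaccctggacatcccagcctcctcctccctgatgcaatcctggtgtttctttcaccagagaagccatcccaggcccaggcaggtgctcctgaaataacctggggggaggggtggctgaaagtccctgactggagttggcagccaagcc
ST6GAL2: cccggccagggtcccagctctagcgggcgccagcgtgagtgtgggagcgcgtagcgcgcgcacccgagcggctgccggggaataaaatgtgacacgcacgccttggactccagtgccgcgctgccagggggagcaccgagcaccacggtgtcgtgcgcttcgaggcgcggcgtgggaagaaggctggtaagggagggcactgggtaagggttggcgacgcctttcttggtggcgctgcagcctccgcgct
ST8SIA4: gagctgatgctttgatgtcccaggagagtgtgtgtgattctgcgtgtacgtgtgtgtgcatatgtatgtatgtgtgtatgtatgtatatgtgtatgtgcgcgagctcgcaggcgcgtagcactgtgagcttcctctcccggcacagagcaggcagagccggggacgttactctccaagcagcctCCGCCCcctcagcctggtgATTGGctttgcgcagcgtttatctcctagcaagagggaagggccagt
B3GALT6: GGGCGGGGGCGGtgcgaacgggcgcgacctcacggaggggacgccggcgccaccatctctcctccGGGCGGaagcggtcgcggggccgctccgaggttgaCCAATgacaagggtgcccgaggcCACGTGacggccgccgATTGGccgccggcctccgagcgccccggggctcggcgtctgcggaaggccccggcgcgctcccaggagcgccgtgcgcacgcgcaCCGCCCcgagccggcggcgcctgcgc
The windows of FUT1 and ST6GAL2 held none of the 5 motifs, that of ST8SIA4 held 1 GC box and 1 CCAAT box, and that of B3GALT6, with a GC content of 79.6%, held 4 GC boxes, 1 E-box and 2 CCAAT boxes. A window was found for 56 members, of which 36 (64.3%) held a GC box, beside 42.3% of 27305 promoters of the same length. The CCAAT box was in 18 of the 56 (32.1%) beside 33.0%, the E-box in 6 (10.7%) beside 6.49%, the AP-1 motif in 4 (7.14%) beside 6.60% and the TATA box in 1 (1.79%) beside 11.1%. The median GC content was 67.0% over these members and 58.0% over all promoters, and the shares were not matched for GC content. Among the 8 members with a window that were at least 2-fold different in a comparison, 4 held a GC box, 4 a CCAAT box, 1 an E-box, 1 an AP-1 motif and 0 a TATA box. A match is a description of the letters and does not show that a factor binds there. MGAT3, GALNT4 and ST8SIA6 had no entry.

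Among the GALNT genes, which start O-glycans, GALNT16 was higher with cordycepin, GALNT4 was lower with cordycepin and GALNT11 was lower with cordyceps. With the scaling reported, none was at least 2-fold different in both comparisons. GALNT16 had signals of 503 on the control, 1057 on the cordycepin and 867 on the cordyceps array, a 2.44-fold higher scaled value with cordycepin (log2 ratio 1.28 ± 0.20, scanner error) and 1.72-fold with cordyceps (0.78 ± 0.21). Both treated arrays were above the control for this gene. Under median scaling GALNT16 passed 2-fold in both comparisons, at 1.02 for cordycepin and 1.05 for cordyceps. GALNT4, whose enzyme acts on peptides that already carry some N-acetylgalactosamine, had signals of 82.6, 35.4 and 55.6, which gave log2 ratios of -1.01 ± 0.29 and -0.57 ± 0.29. Its ratio for cordycepin stood at the threshold, 2.01-fold lower, and both treated arrays were below the control. GALNT11, which modifies Notch1 and receptors of the LDL receptor family, had signals of 282, 211 and 131, with log2 ratios of -0.20 ± 0.21 for cordycepin and -1.11 ± 0.23 for cordyceps. The cordyceps array was thus the low one for this gene.

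No other GALNT gene that could be compared was called at 2-fold. GALNT14, the brightest-probe member of the family and an enzyme that glycosylates TRAIL receptors, had signals of 8886, 7343 and 7458 and ratios of -0.06 and -0.25, and it is a corner member. GALNT2, a widely expressed member with targets in lipid metabolism, had log2 ratios of -0.10 for cordycepin and -0.91 for cordyceps. GALNT1, a corner member with broad activity, showed nearly the same pair of values, -0.10 and -0.86, and its other probe, also in the corner, gave -0.21 and -0.68. For GALNT5 the ratios were 0.39 and -0.72, for GALNT6 0.30 and -0.25, for GALNT12 0.57 and -0.25 and for GALNT7 -0.69 and -0.26. GALNT10 stood at -0.03 and -0.14 and GALNT18, a corner member, at 0.09 and -0.10. GALNT9 was detected with cordycepin alone, at a signal of 29.9, for a ratio of at least 1.61-fold, short of the threshold. Over the 12 members detected on both arrays of a comparison the family median was -0.04 for cordycepin and -0.25 for cordyceps.

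Fucosyltransferases held the largest ratio of the 76 genes. FUT1, which builds the H antigen by adding fucose to a terminal galactose, had signals of 24.7 ± 5.42 (scanner error) in control cells, 95.0 ± 11.0 after cordycepin and 533 ± 54.0 after cordyceps. The control signal lay close to the lowest detected signal of that array, 18.6, and the 3 values did not come within their scanner errors of each other. Scaled, FUT1 was 4.46-fold higher with cordycepin (log2 ratio 2.16 ± 0.36) and 21.6-fold higher with cordyceps (4.43 ± 0.35). It is a corner member with a single probe. Within 6 rows and columns of its spot on the cordyceps array, 74 other probes were measured on both arrays; 0% of them were at least 2-fold higher, their median log2 ratio was -0.24, and the local background of the FUT1 spot carried no outlier mark. After cordycepin, 3.80% of 79 such neighbours reached 2-fold higher, and their median was -0.05. Probes detected on a single array of a comparison were not counted, so these shares leave out spots lit on the treated array alone. The part of the array surface in the FUT1 value was not tested.

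**Figure D3:**
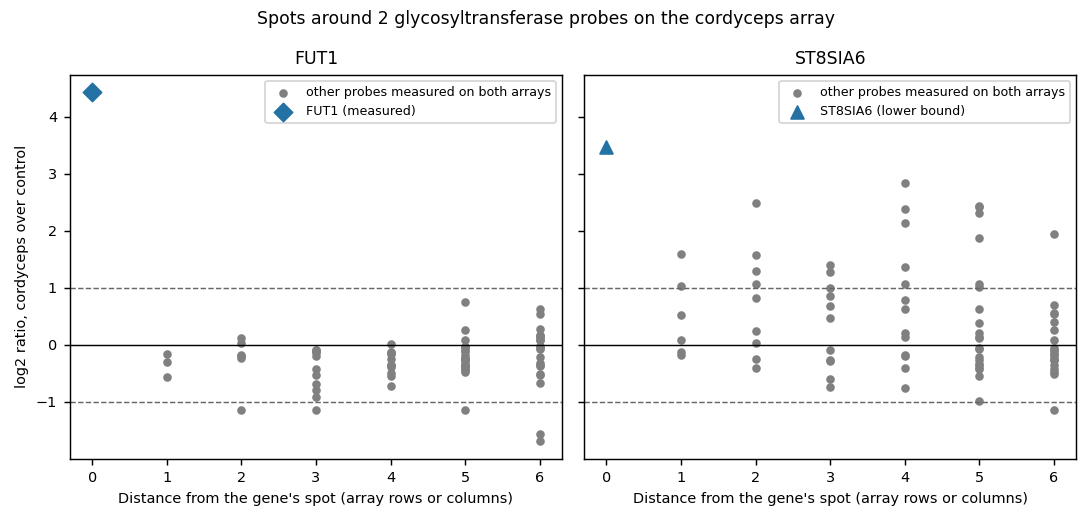
Log2 ratio of cordyceps over control for probes within 6 rows and columns of the FUT1 spot (left) and the ST8SIA6 spot (right), against their distance from it, with the gene itself at distance 0 and dashed lines at 2-fold. Only probes measured on both arrays are drawn. None of the 74 neighbours of FUT1 reached 2-fold higher, whereas 26.2% of the 80 neighbours of ST8SIA6 did. The 2 windows adjoin and overlap, so some probes are drawn in both panels.

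The remaining fucosyltransferases detected were FUT3, FUT4, FUT6 and FUT8. FUT3, the Lewis enzyme, had signals of 68.3, 35.1 and 97.0 and ratios of -0.74 and 0.51, so that the control lay between the treated arrays. FUT8, which adds the core fucose of N-glycans, gave -0.34 and -0.67, with signals of 1346, 916 and 845. FUT4, which makes Lewis X, gave -0.36 and -0.37. FUT6, which makes sialyl-Lewis X, had signals of 284204, 223204 and 246303 at its brightest probe and ratios of -0.13 and -0.21, but its other probe read 3.80, 4.32 and 14.9 and was not detected on any array. Which transcripts the bright probe reports was not tested.

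Among the sialyltransferases the ST6GAL and ST8SIA families held all the calls. With the scaling reported, none of the 6 ST3GAL or 5 ST6GALNAC genes that could be compared was called at 2-fold in either comparison. Of all genes 5.95% were higher and 3.57% lower with cordycepin, and 4.19% and 3.15% with cordyceps. At such shares families of this size would hold few calls or none. Under median scaling ST6GALNAC4 (-1.03) and ST6GALNAC6 (-1.08) passed 2-fold lower with cordycepin. ST6GAL2, which like ST6GAL1 places sialic acid on terminal galactose, had signals of 976 on the control, 255 on the cordycepin and 426 on the cordyceps array. It was 3.29-fold lower with cordycepin (log2 ratio -1.72 ± 0.21) and 2.29-fold lower with cordyceps (-1.20 ± 0.21). Its other probe, at signals of 95.8, 27.9 and 63.1, read -1.57 and -0.60, so both probes had the control array highest, and the cordyceps ratio of the dimmer probe was short of 2-fold. ST6GAL1, its widely expressed paralogue, had signals of 910, 643 and 725 and ratios of -0.29 and -0.33.

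ST8SIA4, 1 of the 2 polysialyltransferases that act on the neural cell adhesion molecule, had signals of 449, 154 and 165 and was 2.51-fold lower with cordycepin (log2 ratio -1.33 ± 0.21) and 2.71-fold lower with cordyceps (-1.44 ± 0.21). The other polysialyltransferase, ST8SIA2, was not detected. A second ST8SIA4 probe was not detected on any array, with signals of 4.36, 4.93 and 7.95. ST8SIA4 and ST6GAL2 are also in glycosylation terms that the study drew from these same arrays, so their place there is not independent evidence of their direction. ST8SIA1, the synthase of the ganglioside GD3, had signals of 74.6, 134 and 69.2, which gave a 2.09-fold higher value with cordycepin (log2 ratio 1.06 ± 0.23) and a ratio of -0.11 ± 0.28 with cordyceps, while its second probe was not detected. Only the cordycepin array was high for ST8SIA1 among the 3.

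ST8SIA6, which extends sialic acid chains on O-glycans, was not detected in control cells (5.64) or after cordycepin (5.43) and had a signal of 207 after cordyceps, at least 11.1-fold higher than a control value set to the lowest detected signal of that array. It is a corner member, and the local background of its spot was marked as outlying. Of 80 neighbouring probes measured on both arrays 26.2% reached 2-fold higher on that array and their median was 0.12, beside 4.88% of 82 after cordycepin. This window overlaps that of FUT1, so the FUT1 spot lies near the same disturbed area. Its second probe, outside the corner, read 4.44, 4.81 and 7.64 and was not detected on any array. The bound is 3.47 on the log2 scale, and it was 1.86 under normexp background correction and 1.09 with the median over both probes, while the ratio without a detection filter was 5.20. The part of the array surface in the ST8SIA6 value was not tested. ST8SIA3 stood at -0.11 for cordycepin.

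All 6 ST3GAL genes, which cap galactose of glycoproteins and glycolipids, lay between -0.44 and 0.31 for cordycepin and between -0.50 and 0.25 for cordyceps. ST3GAL5, the GM3 ganglioside synthase and brightest-probe member of the family, had signals of 3303, 2181 and 2503 and ratios of -0.38 and -0.40. ST3GAL1, which caps core 1 O-glycans, gave 0.01 and 0.24, and ST3GAL2 gave 0.31 and 0.25. ST3GAL4 stood at -0.44 and -0.32, ST3GAL6 at -0.38 and -0.50 and ST3GAL3 at -0.11 and -0.21, and a dimmer ST3GAL3 probe was detected on the control array alone. In the ST6GALNAC family, ST6GALNAC4 had signals of 682, 346 and 997 and ratios of -0.77 and 0.55, with the control between the treated arrays as for FUT3. ST6GALNAC6, which acts on gangliosides, gave -0.81 and -0.58 with signals of 642, 315 and 430. ST6GALNAC1, the sialyl-Tn synthase, gave 0.54 for cordycepin, ST6GALNAC2 -0.41 and 0.19, and ST6GALNAC3 -0.09 and -0.13.

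In the chain-building families 1 gene passed 2-fold. B3GALT6, which adds a galactose of the linker that joins glycosaminoglycans to proteoglycans, had signals of 2273, 628 and 2000 and was 3.12-fold lower with cordycepin (log2 ratio -1.64 ± 0.20), beside -0.19 ± 0.20 with cordyceps. The cordycepin array alone was low. B4GALT7, which adds the galactose before it in the same linker, is a corner member and gave -0.12 and 0.50 with signals of 194, 154 and 274. B3GALT4, a ganglioside galactosyltransferase, gave 0.28 and -0.86 with signals of 785, 824 and 432, the cordyceps array being the low one.

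None of the 7 B3GNT genes that could be compared was called at 2-fold, B3GNT8 and B3GNT9 being bounds for cordyceps. B3GNT3, an extender of core 1 O-glycans and the brightest-probe member, had signals of 5694, 4143 and 3237 and ratios of -0.24 and -0.82. B3GNT2, the main polylactosamine enzyme, stood at -0.09 and -0.11, B3GNT4 at -0.56 and -0.52 and B3GNT7, which takes part in keratan sulfate, at -0.23 and -0.55, with a second B3GNT7 probe not detected. B3GNT5, which starts lacto-series glycolipids and is a corner member, gave 0.13 and 0.18, in surroundings where 30.9% of 68 probes were at least 2-fold higher on the cordyceps array. B3GNT8, a corner member, and B3GNT9 gave -0.25 and -0.29 for cordycepin.

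Among the B4GALT genes the ratios measured on both arrays lay between -0.89 and 0.53. B4GALT5, a lactosylceramide synthase and the brightest-probe member, had signals of 6463, 6228 and 3751 and ratios of 0.16 and -0.79. B4GALT1, the main lactosamine enzyme, gave 0.08 and 0.53 and B4GALT4 -0.30 and -0.89, both as corner members, and B4GALT2 gave 0.04 and -0.16. For B4GALT3 the 2 probes gave -0.16 and -0.26 for cordycepin and -0.08 and 0.12 for cordyceps, differing in direction in the second comparison by less than the single-probe SD. B4GALT6, the other lactosylceramide synthase, was detected on the control array alone, at a signal of 25.7 near the lowest detected one.

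In the MGAT family 2 genes were lower with cordycepin and none of the 7 compared reached 2-fold with cordyceps. MGAT3, which adds the bisecting N-acetylglucosamine that blocks further branching, had signals of 157, 55.7 and 116 and was 2.44-fold lower with cordycepin (log2 ratio -1.28 ± 0.26), beside -0.44 ± 0.24 with cordyceps. MGAT5B, a branching enzyme of O-mannosyl glycans, had signals of 4706, 1748 and 2960 and was 2.32-fold lower with cordycepin (-1.22 ± 0.20), beside -0.67 ± 0.20 with cordyceps. In both genes the control array was highest, the cordyceps array in between and the cordycepin array lowest. MGAT5B is a corner member whose 69 neighbours on the cordyceps array had 1.45% at least 2-fold higher, and its second probe was not detected.

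MGAT4A stood just under the threshold on the other side, with signals of 165, 279 and 139 and ratios of 0.97 for cordycepin, 1.96-fold, and -0.25 for cordyceps. Its paralogue MGAT4B, the brightest-probe member of the family, had signals of 15646, 13439 and 14092 and ratios of -0.01 and -0.15. MGAT5, which makes the branch that carries polylactosamine, gave 0.35 and -0.67, and a dimmer probe gave 0.65 for cordycepin. MGAT2, a corner member needed for complex N-glycans, gave -0.34 and 0.08. MGAT1, which opens the path to hybrid and complex N-glycans, was read by 3 probes that differed in direction, with signals on the control array of 1835, 573 and 60.6, ratios for cordycepin of -0.40, -0.71 and 0.57 and for cordyceps of -0.12, -0.08 and 0.57. The probe that stood apart was the dimmest of them, and the gene is described by the brightest.

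**Figure D4:**
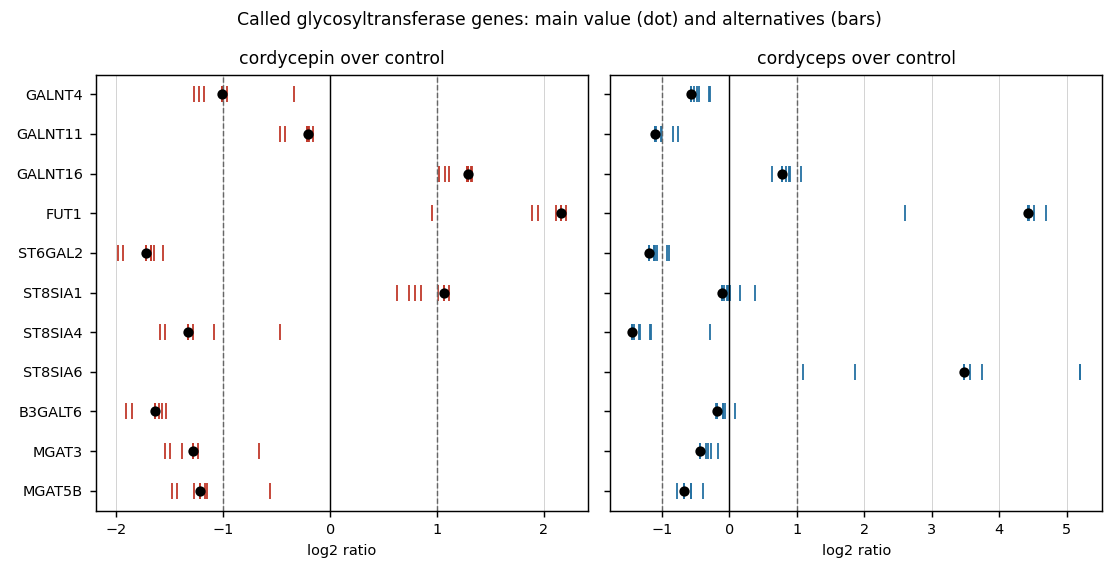
Log2 ratio of the 11 members at least 2-fold different in a comparison, with a dot for the value reported and a bar for each alternative processing, and dashed lines at 2-fold. GALNT16, ST6GAL2 and B3GALT6 kept every cordycepin bar past 2-fold, whereas GALNT4, FUT1, ST8SIA1, ST8SIA4, MGAT3 and MGAT5B each had at least 1 bar short of it.

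Processing decided some of these calls. Under normexp background correction, which pulls dim signals together, the cordycepin ratio was 0.96 for FUT1, 0.62 for ST8SIA1, -0.67 for MGAT3 and -0.34 for GALNT4, each short of 2-fold, and the cordyceps ratio of GALNT11 was -0.76. With the median over all probes of a gene, which brings in the undetected second probes of ST8SIA4, MGAT5B and ST8SIA1, ST8SIA4 stood at -0.47 and -0.29 and MGAT5B at -0.56 and ST8SIA1 at 0.73 for cordycepin. ST6GAL2, whose second probe was detected, then stood at -0.90 for cordyceps. Scaling to the array median put ST8SIA1 at 0.80 for cordycepin and ST6GAL2 at -0.93 and GALNT11 at -0.84 for cordyceps, no scaling put ST8SIA1 at 0.85, and the percentile of detected probes put GALNT4 at -0.96. Leaving out the corner and rescaling put GALNT11 at -0.99. Calls were gained as well. Median scaling put FUT3 at -1.01, ST6GALNAC4 at -1.03 and ST6GALNAC6 at -1.08 for cordycepin and GALNT16 at 1.05 for cordyceps. For cordycepin, no scaling also added ST6GALNAC6, and the percentile of detected probes added MGAT4A at 1.02. Looser detection rules added B3GALT5, GALNT15, MGAT4C and ST6GALNAC5 for cordycepin and FUT5 and MGAT4C for cordyceps, none of them detected by the reported rule. FUT1 ranged from 2.61 to 4.70 for cordyceps and ST6GAL2 from -1.98 to -1.56 for cordycepin over all alternatives run, past 2-fold in each setting that kept their probes. No called ratio turned in sign under the alternatives run.

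Gene lists from the rest of the glycosylation pathway were read by the same call. Donor sugar supply, 22 genes that make and carry nucleotide sugars, had 0 genes at 2-fold with cordycepin (median -0.03) and 3 higher with cordyceps (13.6%, beside 4.19% of all genes, median 0.14): GFPT1, the entry enzyme of the hexosamine pathway (1.34, a corner gene), PGM3, which acts later in it (1.41), and UGP2, which makes UDP-glucose (1.26). The list of other glycosyltransferases held 37 genes, mostly of the Golgi or endoplasmic reticulum. It had 0 higher and 2 lower with cordycepin (6.45% of those compared, beside 3.57% of all genes). These were GCNT2, which makes I-branches (-1.44), and POMT2, which starts O-mannosylation (-1.15). With cordyceps GCNT2 (-1.03) was again lower and EOGT, a corner gene that acts on EGF domains, was at least 2.32-fold higher, 1 of 32 compared in each direction, beside 3.15% and 4.19% of all genes. Medians of this list were -0.22 and -0.25.

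N-glycan transfer and trimming, 19 genes, had 1 lower gene in each comparison (5.26%, beside 3.57% and 3.15% of all genes), the Golgi mannosidases MAN2A2 with cordycepin (-1.04) and MAN1C1 with cordyceps (-1.02), and medians of -0.28 and -0.12. Sialidases and other glycosidases, 16 genes of which 13 were compared, had 0 genes at 2-fold in either comparison and medians of -0.27 and -0.19. Of 12 mucin genes on the array 8 were compared, and MUC5B, a gel-forming airway mucin (-2.27), and the membrane mucins MUC1 (-1.55) and MUC16 (-1.36) were lower with cordycepin, MUC1 also with cordyceps (-1.15). That was 37.5% of the mucins compared for cordycepin, beside 3.57% of all genes, and 12.5% for cordyceps, beside 3.15%. Of the glycan sulfotransferases 8 of 12 were compared. CHST1, which sulfates keratan sulfate (1.92), CHST2, which sulfates N-acetylglucosamine (2.18), and CHST8, which acts on N-acetylgalactosamine (1.33), were higher with cordycepin, and GAL3ST1, the sulfatide enzyme also held in the study's glycosylation terms, was lower (-1.27). CHST1 (2.60) and CHST2 (1.48) were higher and GAL3ST1 (-1.19) lower with cordyceps, and all 4 of these genes lie in the corner. The higher genes were 37.5% of those compared for cordycepin, beside 5.95% of all genes, and 2 of 8 for cordyceps, beside 4.19%, and the lower gene was 12.5% in each, beside 3.57% and 3.15%. A constant scaling of an array moves the medians of all these lists by the same amount as the median of all genes.

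**Figure D5:**
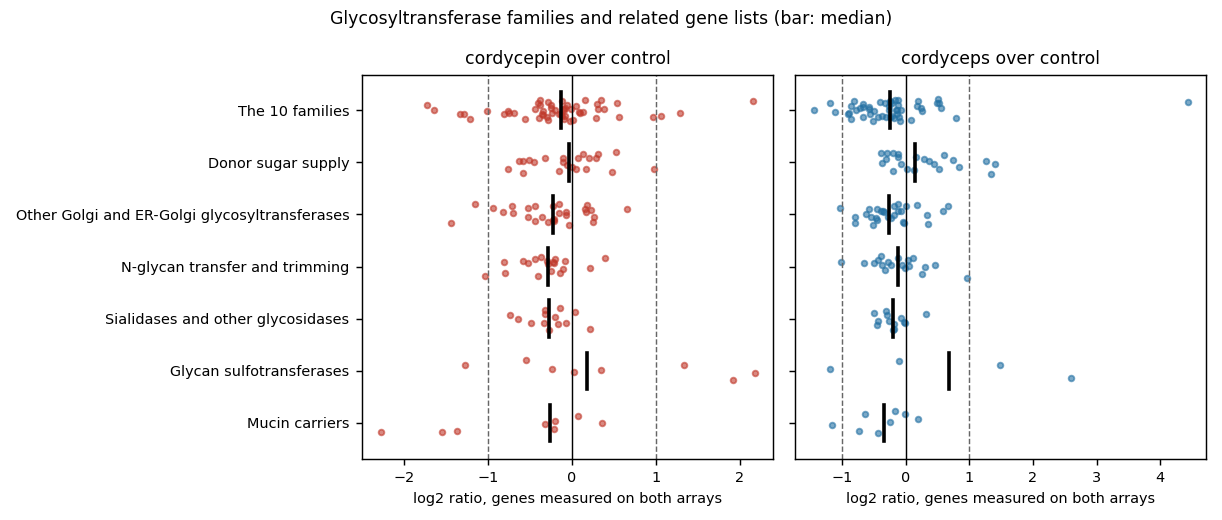
Log2 ratios of genes detected on both arrays, 1 point per gene, for the 10 glycosyltransferase families together and for 6 related lists, cordycepin over control on the left and cordyceps over control on the right, with a bar at each median and dashed lines at 2-fold. The medians for the 10 families lie at -0.13 and -0.25 (0.017 after scaling to the array median), and most genes of every list but the sulfotransferases lie within 2-fold of the control.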

How the data were processed

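RNA of A549 cells from 3 conditions was measured on 1 Agilent array each. The deposited intensity values are the processed signals of Agilent Feature Extraction 11.5.1.1, which the authors obtained in 1 colour (Cy3) with background subtraction and no scaling between arrays. The deposited value table of the series holds unscaled mean signals of the same spots and served as an alternative. The methods name a second dye, which the files do not hold. The 3 arrays share a slide and a scan.

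Control spots and spots marked as outliers were left out, log2 signals of a probe's spots were averaged, and the 75th percentile of each array was subtracted, with Python 3.11.15, pandas 2.3.3 and numpy 2.4.6. Accessions were named through the RefSeq gene table of GRCh38.p14, which named 22435 genes. Where a probe was detected on 1 array of a comparison, its ratio is a bound, the detected value against the higher of the undetected value and the lowest detected value on that array. No test was run, since each condition had 1 array, whose number limits the precision. Counts and medians of the members are set beside those over all genes.

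The members and the gene lists were chosen with earlier results of these data known, and 2 genes of the lists are not reported here. Full values were given for members at 2-fold or more in a comparison, for the brightest-probe member of each family, for members whose probes differed in direction, and for the members in the study's glycosylation terms. Surroundings of a spot were taken within 6 rows and columns, a measure chosen after seeing the data. The calling steps were run on simulated data, with large changes planted in well detected probes and noise below the single-probe SD. That run checks the code alone and does not cover dim probes or bounds. Alternatives were median, detected-probe, quantile and no scaling, normexp background correction (limma 3.58.1 in R 4.3.3, offset 50), 3 detection rules, outlier spots kept, the value table, the median over a gene's probes, the corner left out and 1.5-fold and 3-fold thresholds.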

Additional observations from a re-analysis of the deposited data

How the results depend on the processing

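A constant scaling shifts every ratio of an array by the same amount. Scaling to the array median moved the median of all genes from -0.05 to -0.32 for cordycepin and from -0.11 to 0.16 for cordyceps, and no scaling moved it to -0.26 for cordycepin. The members' medians became -0.40 and 0.017 under median scaling, so the sign for cordyceps turned, while the members' median minus that of all genes was -0.08 and -0.15 under every constant scaling. Median scaling also left 1 lower member for cordyceps. Normexp correction left 1 higher member for cordycepin. Requiring detection on both arrays left 1 higher member for cordyceps, and leaving out the corner left 0. Without a detection filter, and with detection by a positive and significant signal, 5 members were higher for cordycepin and 4 for cordyceps. The median over a gene's probes left 1 lower member for cordyceps. At 1.5-fold 5 members were higher and 10 lower for cordycepin and 13 lower for cordyceps, and at 3-fold these counts were 1, 2 and 0. The shares of all genes were computed at the reported threshold and processing only. The counts under other thresholds, scalings and detection rules therefore have no background beside them and are descriptions. Other counts stayed within 1.5 times of those reported. Members called in a comparison gave, over both comparisons, 207 values within the median-based single-probe SD of the value reported and 39 beyond it. Several alternatives, such as the detection rules, cannot move a ratio measured on both arrays, and median scaling moves all ratios alike. The tally is therefore no measure of how stable the members are. Among called values 0 turned in sign. No paired analysis was possible because each condition has 1 array. Leaving out a replicate could not be run for the same reason. Dim signals limit FUT1 in control cells and GALNT4, ST8SIA1 and MGAT3, whose calls ended under normexp.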
